A study of Mus musculus with 7 samples.

Results

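Genes of the TGF-beta and BMP pathway were described in mouse embryonic fibroblasts (MEF), in hepatic stem cells induced from such fibroblasts (iHepSC) and in primary hepatocytes (pHep). A list of 48 genes was followed, picked by their role in the pathway, and 47 of them had a value among the 18193 genes read. Gdf15 is not analysed here. The genes were sorted by role into ligands, latent binding proteins, receptors, antagonists, Smad proteins and target genes.

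RNA was hybridised to Affymetrix mouse expression arrays, with 4 arrays of MEF, 2 of iHepSC and 1 of pHep. The strain was C57BL/6 in the sample labels and C57BL/6J in the protocols. MEF were prepared from embryos without head and inner organs and were grown in DMEM with serum. The iHepSC came from MEF that had received Oct4 and Hnf4α from lentiviral SFFV vectors, and were picked as colonies and expanded on collagen in a hepatocyte medium with serum, HGF, EGF, dexamethasone and nicotinamide. One iHepSC array was made at passage 3 (replicate 1) and one at passage 20 (replicate 2), and the clone on the arrays is not given in the sources used here. The pHep were released from the liver of mice aged 6 weeks by collagenase perfusion. The sample labels put them in the same hepatocyte medium as iHepSC, whereas the study's methods describe a short plating in Williams' medium E with antibiotics and glutamine. No factor was given to MEF or pHep. The medium went with the cell type in every comparison with MEF, so that both cannot be told apart, and the same may hold for iHepSC against pHep. The labels do not say whether arrays of 1 group came from separate cultures, so p-values measure the spread between these arrays, which may be technical. The lone pHep array was assumed to vary like the other groups.

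TGF-beta is secreted in a latent complex with latent TGF-beta binding proteins and, once freed, joins a type 2 and a type 1 receptor that phosphorylate Smad2 and Smad3. BMPs and their receptors act through Smad1, Smad5 and Smad9, activins through Smad2 and Smad3, and both branches share Smad4. In the liver TGF-beta is known for driving matrix production by stellate cells and halting hepatocyte division, and BMP6 for setting hepcidin, the hormone of iron balance.

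Values are log2 expression levels, so that a difference of 1 is a 2-fold difference, and all values per array are given in the order MEF replicates 1 to 4, iHepSC passage 3 and passage 20, and pHep. Each gene was read by 1 probe set, the short probes on the array that stand for 1 transcript. A gene was called when its adjusted p was under 0.05 in limma, a linear model fitted to all genes, and no probe set's level was set against that of another. In bulk RNA, fewer cells of a type and less RNA per cell cannot be told apart. The median probe set of the 7 arrays lay between 6.28 and 6.33, and Acvrl1, Bmp5, Nog and Smad9 read below that on the mean of each group. The files give no call of detection. A group mean below that median, as for 8 genes in MEF, 11 in iHepSC and 8 in pHep, may lie at background, where a log2 difference can understate the true one, so no fold is given against such a group and no order is read among such values. One MEF array stood apart: replicate 1 correlated with the other MEF arrays at 0.960 to 0.961 over all probe sets, whereas replicates 2 to 4 correlated with each other at 0.997. Dividing-cell markers averaged 8.49 on MEF replicate 1 and between 11.4 and 11.6 on MEF replicates 2 to 4. On that array 10 of 47 pathway genes were more than 1 above the mean of the other MEF arrays and 0 were more than 1 below it, and over all genes 8.26% and 3.73% were. For example, the iHepSC difference was -4.94 against MEF replicate 1 and -3.24 against the other MEF arrays for Tgfb2, -5.15 and -3.86 for Ltbp1, -6.71 and -5.54 for Ltbp2, -2.04 and -0.24 for Bmp4 and -2.42 and -0.27 for Inhbb.

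The fibroblast and hepatocyte labels went with their markers. All 8 fibroblast markers were lower in iHepSC than in MEF, and their mean level was 11.9 to 12.9 on the MEF arrays. Of 8 hepatocyte markers, 7 were higher in iHepSC than in MEF, the exception being Cyp3a11, and all 8 were higher in pHep than in MEF. Between the hepatic cells 4 of the 8 were lower in iHepSC than in pHep and 0 were higher. Fgb read 7.46 and 7.28 in iHepSC and 14.78 in pHep. Cps1 and G6pc read at most 5.98 and 5.59 in iHepSC, which may lie at background, and 12.74 and 9.59 in pHep. On the pHep array 7 of 10 macrophage markers were higher than in MEF, with Vsig4 at 11.6, C1qa and C1qb at 11.1, and Marco at 9.24, while Clec4f and Timd4, defining markers of liver macrophages, read 6.08 and 4.50. The mean level of the macrophage list was 8.69 on the pHep array and 6.24 to 6.92 on the MEF arrays. The fibroblast list averaged 7.88 on the pHep array, against 5.37 and 5.46 on the iHepSC arrays, and Col3a1 and Col1a2 read 10.87 and 10.47 there. Of 5 cholangiocyte markers 2 were higher in pHep than in MEF (Krt7 at 11.17 and Sox9 at 10.90) and 1 was lower. In iHepSC 3 of them were higher than in MEF and 1, Sox9, was lower. The higher ones were Krt19 at 14.43 and 14.07, Krt7 at 13.43 and 13.52, and Cftr at 5.91 and 5.16. Of 7 stellate markers 1 was higher in pHep than in MEF (Reln at 6.69) and 1 was lower. The part of these other cells in the pHep values below was not tested.

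Against MEF, 24 of the 47 pathway genes were called in iHepSC, 10 higher and 14 lower, beside 31.6% of all genes tested (18.2% higher and 13.4% lower). The share of the pathway genes was 51.1%, and their median difference was -0.32, against 0.01 over all genes. In pHep 27 were called, 12 higher and 15 lower, or 57.4% beside 30.3% of all genes (14.8% higher and 15.5% lower), with medians of -0.27 and -0.13. Between iHepSC and pHep 18 were called, 8 higher and 10 lower in iHepSC, or 38.3% beside 17.1% of all genes (9.26% higher and 7.89% lower), with medians of 0.05 and 0.15. Both comparisons with MEF share the 4 MEF arrays. All 24 and all 27 genes kept their sign against MEF replicate 1 alone and against the mean of replicates 2 to 4. This follows from the call, because the spread in the model already holds the deviation of MEF replicate 1, and is no separate check. Without MEF replicate 1, 15 genes were called higher and 23 lower in iHepSC against MEF. With each array centred on Gapdh in place of the deposited scale, the calls split into 15 higher and 11 lower in iHepSC against MEF and 10 higher and 7 lower in iHepSC against pHep. The genes called in none of the 3 comparisons were 11, namely Ltbp3, Ltbp4, Tgfbr2, Acvrl1, Bmp4, Bmp5, Inha, Inhbb, Bmpr1a, Bmpr2 and Chrd. By the test that the study's methods name, on the same values and with the same adjustment, 20 of the 24 genes were called in iHepSC against MEF, 13 of the 27 in pHep against MEF and 1 of the 18 in iHepSC against pHep.

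**Figure D1:**
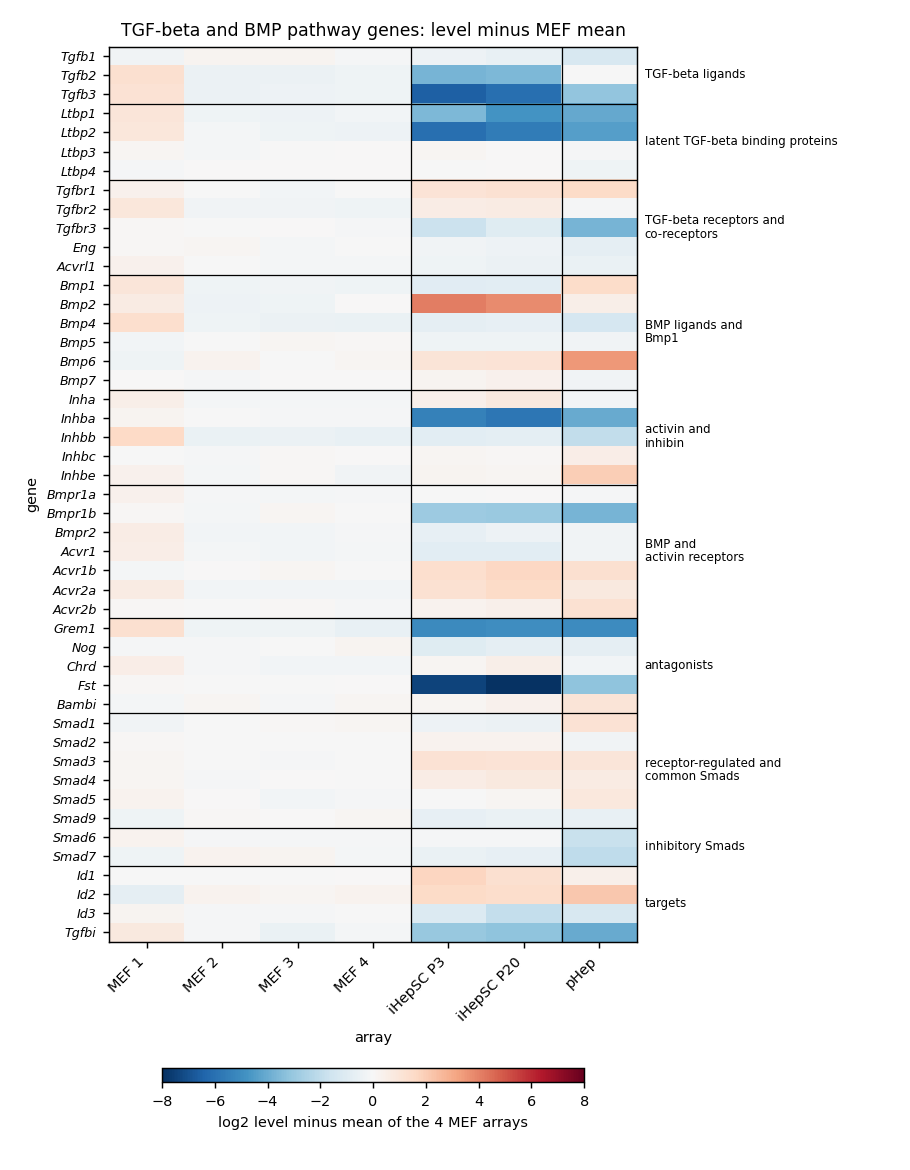
Level of each of the 47 pathway genes (rows, grouped by role) on each of the 7 arrays (columns), as the log2 level minus the mean of the 4 MEF arrays. Blue is below and red above the MEF mean, and the deepest blue is Fst in iHepSC, at -7.66 on average.

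Of the TGF-beta ligands, Tgfb2 and Tgfb3 were lower in iHepSC than in MEF, and Tgfb1 and Tgfb3 were lower in pHep than in MEF. Tgfb3 read 12.77, 11.16, 11.21 and 11.26 in MEF, 5.10 and 5.57 in iHepSC and 8.41 in pHep. The 3 groups did not overlap. Tgfb3 fell by 6.27 on the log2 scale in iHepSC (SE 0.50, limma adjusted p = 0.000239) and by 3.19 in pHep (SE 0.64, adjusted p = 0.0136), and stood 3.08 lower in iHepSC than in pHep (SE 0.70, adjusted p = 0.0313). The last call was made in 1 of the 6 fits that left out an array, with adjusted p up to 0.145. Against MEF replicate 1 alone the iHepSC difference was -7.44, and against the other MEF arrays -5.87.

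Tgfb2 read 11.48, 9.72, 9.75 and 9.87 in MEF, 6.474 and 6.603 in iHepSC and 10.20 in pHep. The iHepSC arrays lay below all others, and the pHep array lay between MEF replicate 1 and the other MEF arrays. Tgfb2 fell by 3.67 on the log2 scale in iHepSC against MEF (SE 0.52, 12.7-fold, adjusted p = 0.00295), and was 3.66 lower in iHepSC than in pHep (SE 0.74, adjusted p = 0.0207). The difference of pHep from MEF had a 95% interval of -1.65 to 1.65, and without MEF replicate 1 it was 0.42 with an adjusted p of 0.0155. The 3 other probe sets of Tgfb2 had the same order, with iHepSC lowest by group mean. In iHepSC their differences from MEF were smaller, at -2.74, -2.49 and -1.46. The call between iHepSC and pHep was made in 4 of the 6 fits that left out an array. It was lost with the mean of all probe sets.

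Tgfb1 read 7.73, 8.24, 8.23 and 7.95 in MEF, 7.63 and 7.42 in iHepSC and 6.77 in pHep. The iHepSC and pHep arrays lay below every MEF array, and the call was reached in pHep (difference -1.27, SE 0.23, adjusted p = 0.00939) but not in iHepSC (difference -0.51, SE 0.18, adjusted p = 0.0778). Without MEF replicate 1 it was reached in iHepSC too (-0.62, adjusted p = 0.00401). Tgfb1 is a known product of macrophages, of whose 10 markers 7 were higher in pHep than in MEF, and it was lowest on the pHep array. The part of macrophages in the Tgfb1 level of pHep was not tested.

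Of the 4 latent TGF-beta binding proteins, which anchor latent TGF-beta in the matrix, Ltbp1 and Ltbp2 were lower in both hepatic cells and Ltbp3 and Ltbp4 were called in no comparison. Ltbp2 read 12.68, 11.62, 11.48 and 11.42 in MEF, 5.75 and 6.19 in iHepSC and 7.38 in pHep. Ltbp1 read 11.81, 10.49, 10.45 and 10.62 in MEF, 7.28 and 6.05 in iHepSC and 6.73 in pHep. All MEF arrays lay above all others for both genes, and the iHepSC passages stood on either side of pHep for Ltbp1. Ltbp2 fell by 5.83 on the log2 scale in iHepSC (SE 0.39, adjusted p = 0.00011) and by 4.42 in pHep (SE 0.50, 21.4-fold, adjusted p = 0.00146). For Ltbp1 the differences were -4.18 (SE 0.50, adjusted p = 0.00147) and -4.11 (SE 0.65, adjusted p = 0.00553). The iHepSC difference from pHep was -0.07 for Ltbp1, with an interval of -1.81 to 1.67. The Ltbp3 probe set used stayed between 11.89 and 12.21 on all 7 arrays. A second Ltbp3 probe set read 11.10, 9.93, 9.68 and 9.67 in MEF, 11.12 and 11.06 in iHepSC and 11.03 in pHep. Its differences from the MEF mean were 0.99 in iHepSC and 0.94 in pHep. The dimmer ones gave 0.23 and 1.01 in iHepSC and 1.44 and 2.63 in pHep, so Ltbp3 is not called steady as a gene.

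**Figure D2:**
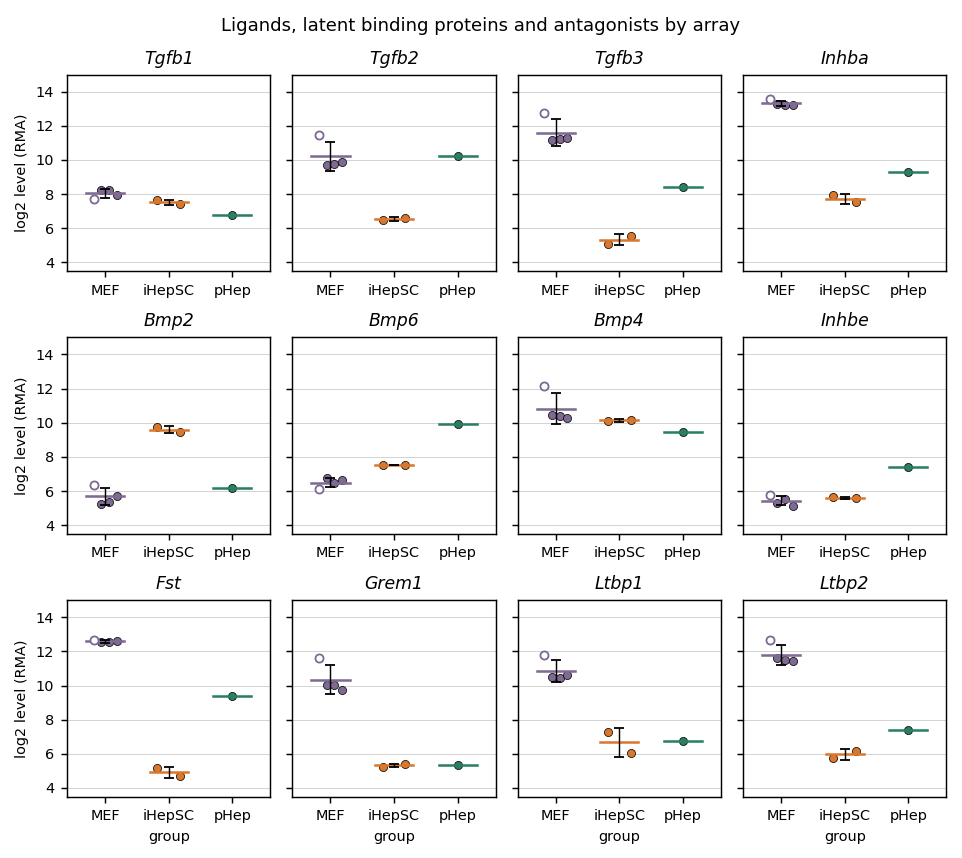
Log2 level of 12 ligand, latent binding protein and antagonist genes on each array, by group (points; open circle, MEF replicate 1), with the group mean as a line and the SD as a bar for the 4 MEF and 2 iHepSC arrays. Fst, Tgfb3, Ltbp2 and Inhba fall most from MEF to iHepSC, Bmp2 is high in iHepSC alone and Bmp6 is highest in pHep at 9.95.

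BMP ligands differed in which hepatic cell was high. Bmp2 was high in iHepSC and Bmp6 in pHep, and Bmp4, Bmp5 and Bmp7 were not called against MEF. Bmp2 read 6.35, 5.27, 5.37 and 5.74 in MEF, 9.76 and 9.44 in iHepSC and 6.17 in pHep. Both iHepSC arrays lay above all others, and the pHep array lay within the MEF range. Bmp2 rose by 3.92 on the log2 scale in iHepSC against MEF (SE 0.32, adjusted p = 0.000272) and was 3.43 higher than in pHep (SE 0.45, adjusted p = 0.00378). In pHep the difference from MEF was 0.49 (SE 0.41, adjusted p = 0.401).

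Bmp6, the ligand that sets hepcidin in the liver, read 6.12, 6.75, 6.45 and 6.63 in MEF, 7.54 and 7.55 in iHepSC and 9.95 in pHep. The groups did not overlap and ran from MEF through iHepSC to pHep. Bmp6 was 3.46 higher in pHep than in MEF (SE 0.24, 11-fold, adjusted p = 0.000185), 1.06 higher in iHepSC than in MEF (SE 0.19, 2.08-fold, adjusted p = 0.00683) and 2.40 lower in iHepSC than in pHep (SE 0.26, adjusted p = 0.00174). In liver Bmp6 is known to come largely from sinusoidal endothelial cells. Of 8 endothelial markers 0 were higher and 1 was lower in pHep than in MEF, with Pecam1 at 4.77, Cdh5 at 5.36 and Stab2 at 6.05 on the pHep array. The list averaged 5.24 there against 5.58 to 5.79 on the MEF arrays. The part of endothelial cells in the Bmp6 level of pHep was not tested. Bmp2 is also made by endothelial cells. In iHepSC 3 of the 8 markers were higher than in MEF (Cdh5, Tek and Lyve1), while Pecam1 read at most 5.30 and Emcn 4.55 and 4.90, and their part in the Bmp2 level was not tested.

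Bmp4 read 12.17 on MEF replicate 1, 10.27 to 10.47 on the other MEF arrays, 10.08 and 10.18 in iHepSC and 9.48 in pHep, and its differences of -0.69 and -1.34 from MEF were not called (adjusted p = 0.409 and 0.202). Bmp1, a protease that cuts procollagen and chordin rather than a BMP, was called only between iHepSC and pHep, at -2.33 (SE 0.57, adjusted p = 0.0393), and that call was made in 1 of the 6 fits that left out an array (adjusted p up to 0.153). It read 8.69 and 8.75 in iHepSC, 11.05 in pHep and 9.24 to 10.57 in MEF. A second Bmp1 probe set read 7.90 to 8.23 in MEF, 5.68 on both iHepSC arrays and 8.81 in pHep, a difference of -2.33 between iHepSC and MEF. Bmp7 was 0.56 higher in iHepSC than in pHep (SE 0.14, adjusted p = 0.0424), on levels from 6.36 to 6.98, also called in 1 of those 6 fits (adjusted p up to 0.158).

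Among activin and inhibin subunits, Inhba, which forms activin A, was lower in both hepatic cells, and Inhbe, which liver cells are known to make, was higher in pHep. Inhba read 13.54, 13.26, 13.21 and 13.23 in MEF, 7.92 and 7.51 in iHepSC and 9.27 in pHep. The 3 groups did not overlap. Inhba fell by 5.60 on the log2 scale in iHepSC (SE 0.16, 48.4-fold, adjusted p = 3.62e-06), fell by 4.04 in pHep (SE 0.21, 16.5-fold, adjusted p = 5.47e-05) and was 1.55 lower in iHepSC than in pHep (SE 0.23, adjusted p = 0.00583). Inhbe read 5.75, 5.30, 5.53 and 5.14 in MEF, 5.64 and 5.56 in iHepSC and 7.41 in pHep, so that the pHep array alone stood out. It was 1.98 higher in pHep than in MEF (SE 0.23, adjusted p = 0.0018) and 1.80 lower in iHepSC than in pHep (SE 0.26, adjusted p = 0.00528). Inhbc, a further subunit made in the liver, was 0.52 higher in pHep than in MEF (SE 0.12, adjusted p = 0.0223). Inhbb read 11.37 on MEF replicate 1 and 9.19 to 9.26 on the other MEF arrays, and neither it nor Inha was called.

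Antagonists bind ligands outside the cell, and 3 of the 5 were lower in iHepSC than in MEF and none higher. Follistatin (Fst), which binds activin, was bright in MEF and dim in iHepSC. It read 12.66, 12.52, 12.53 and 12.60 in MEF, 5.15 and 4.69 in iHepSC and 9.38 in pHep. The spread within MEF was 0.07 (SD, n = 4), and no groups overlapped. Fst fell by 7.66 on the log2 scale in iHepSC (SE 0.15, adjusted p = 1.01e-06) and by 3.20 in pHep (SE 0.19, 9.19-fold, adjusted p = 8.99e-05), and was 4.46 lower in iHepSC than in pHep (SE 0.21, adjusted p = 4.67e-05). Its second probe set gave -6.14 and -3.15 against MEF.

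Gremlin (Grem1), which binds BMP2 and BMP4, read 11.62, 10.01, 10.02 and 9.72 in MEF, 5.25 and 5.39 in iHepSC and 5.32 in pHep. The iHepSC and pHep arrays lay below all MEF arrays and below the median probe set. Grem1 fell by 5.03 on the log2 scale in iHepSC (SE 0.53, adjusted p = 0.000835) and by 5.03 in pHep (SE 0.69, adjusted p = 0.00312), and these were -6.30 against MEF replicate 1 and -4.60 against the other MEF arrays in both cases. Noggin (Nog) was lower by 0.83 in iHepSC and 0.69 in pHep on a dim probe set (5.03 to 6.19 on all arrays). Bambi, a decoy receptor without a kinase, read 8.51 to 8.83 in MEF, 8.85 and 9.03 in iHepSC and 9.72 in pHep, and was higher in pHep than in MEF (1.03, SE 0.17, adjusted p = 0.00681). Chordin (Chrd) was not called.

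Among the receptors, Bmpr1b and the co-receptor Tgfbr3 were lower in both hepatic cells than in MEF. Bmpr1b, a type 1 receptor of BMPs, read 8.01, 7.72, 8.04 and 7.85 in MEF, 4.98 and 4.94 in iHepSC and 4.17 in pHep. Tgfbr3, or betaglycan, which presents TGF-beta to its receptors, read 11.34, 11.17, 11.28 and 11.14 in MEF, 9.54 and 10.24 in iHepSC and 7.50 in pHep. The hepatic arrays lay below every MEF array for both genes, and for Tgfbr3 the groups did not overlap and pHep was lowest. Bmpr1b fell by 2.94 on the log2 scale in iHepSC (SE 0.12, adjusted p = 1.62e-05) and by 3.73 in pHep (SE 0.16, adjusted p = 2.8e-05). Tgfbr3 fell by 1.34 in iHepSC (SE 0.20, 2.54-fold, limma adjusted p = 0.00342) and by 3.73 in pHep (SE 0.26, adjusted p = 0.000179), and was 2.39 higher in iHepSC than in pHep (SE 0.28, 5.25-fold, adjusted p = 0.00235). On the other Tgfbr3 probe set, which read below the median probe set in both hepatic cells, iHepSC was 0.32 above pHep. With the mean of all probe sets the call between iHepSC and pHep was lost.

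The activin receptors Acvr1b and Acvr2a were higher in iHepSC than in MEF on the probe sets used. Acvr1b, the type 1 receptor of activin, read 8.71, 8.94, 9.04 and 8.87 in MEF, 10.22 and 10.54 in iHepSC and 10.15 in pHep. The hepatic arrays lay above all MEF arrays, and Acvr1b was 1.49 higher in iHepSC (SE 0.14, 2.81-fold, adjusted p = 0.000511) and 1.26 higher in pHep (SE 0.18, 2.40-fold, adjusted p = 0.00386). Its other, dimmer probe set went the other way, at -0.31 and -0.65. Acvr2a, a type 2 receptor, read 9.34, 8.49, 8.47 and 8.50 in MEF, 9.89 and 10.22 in iHepSC and 9.47 in pHep, and was called in iHepSC alone of the comparisons with MEF (1.35, SE 0.28, adjusted p = 0.0137). Against MEF replicate 1 that difference was 0.71. The Acvr2a call in iHepSC was made in 4 of the 6 fits that left out an array. The other Acvr2a probe set, at a mean of 8.48 in MEF, did not rise, at -0.13 in iHepSC and -0.65 in pHep. Acvr2b read 6.50, 6.41, 6.51 and 6.32 in MEF, 6.73 and 6.87 in iHepSC and 7.64 in pHep, and was 1.21 higher in pHep (SE 0.13, adjusted p = 0.00142). In iHepSC its difference of 0.36 (SE 0.10, limma adjusted p = 0.0427) was called in 1 of the 6 fits that left out an array. The difference lay between 0.29 and 0.43 in these fits, and the call was lost with an intensity trend in the variance. A second Acvr2b probe set, at a mean of 6.00 in MEF, was 1.45 higher in iHepSC and 1.97 higher in pHep. The third and dimmest gave -0.06 and -0.33. Acvr1, a type 1 receptor of BMPs, was 0.84 lower in iHepSC (SE 0.24, adjusted p = 0.0396), which was called in 1 of those 6 fits (adjusted p up to 0.192) and was lost with arrays centred on their median or on Gapdh. The main BMP receptors Bmpr1a and Bmpr2 were not called, with Bmpr1a between 10.72 and 11.19 on all arrays.

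The TGF-beta receptor Tgfbr1, the kinase of the TGF-beta receptor pair, depended on the probe set. The probe set used, the brightest, read 10.70, 10.33, 10.13 and 10.31 in MEF, 11.48 and 11.60 in iHepSC and 11.88 in pHep, and was 1.17 higher in iHepSC (SE 0.17, 2.26-fold, adjusted p = 0.00302) and 1.51 higher in pHep (SE 0.22, 2.86-fold, adjusted p = 0.00385). A second Tgfbr1 probe set read 4.79, 6.95, 6.91 and 6.70 in MEF, 5.04 and 4.99 in iHepSC and 5.10 in pHep. The third read 4.20, 5.97, 6.18 and 6.42 in MEF, 4.33 and 4.40 in iHepSC and 4.41 in pHep. On these MEF replicate 1 stood with the hepatic cells and not with the other MEF arrays, so no direction is given for Tgfbr1 as a gene. MEF replicate 1 was more than 1 below the mean of the other MEF arrays on 7 of the 55 probe sets of pathway genes that were not used (of Bmpr1b, Smad3, Tgfbr1, Tgfbr2 and Tgfbr3) and on 0 of the 47 used. Tgfbr2, the receptor that first binds the ligand, read 12.62 on MEF replicate 1, 11.34 to 11.39 on the other MEF arrays, 12.26 and 12.35 in iHepSC and 11.62 in pHep. A second, dimmer Tgfbr2 probe set read 7.61, 8.68, 8.78 and 8.54 in MEF, 7.27 and 7.33 in iHepSC and 6.57 in pHep. Its differences from the MEF mean were -1.10 and -1.83, so no direction is given for Tgfbr2 as a gene. On the probe sets used, neither Tgfbr2 nor Eng nor Acvrl1 was called in iHepSC. Eng, a co-receptor, was 0.70 lower in pHep (SE 0.16, limma adjusted p = 0.0199). Eng and Acvrl1 are known from endothelial cells.

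**Figure D3:**
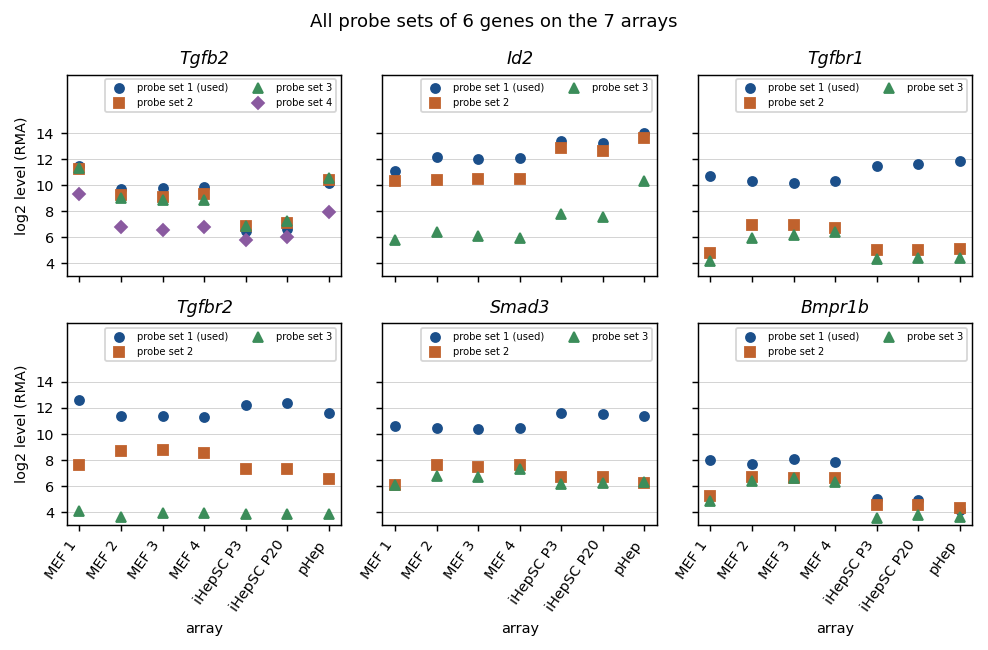
Log2 level of every probe set of 6 pathway genes on the 7 arrays (x axis), each probe set with its own marker and the one used named in the legend. By group mean every probe set is lowest in iHepSC for Tgfb2 and lowest in MEF for Id2, though the sizes of the differences vary. The dim probe sets of Tgfbr1 place MEF replicate 1 at 4.79 and 4.20, beside the hepatic cells.

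Smad proteins carry the signal to the nucleus. Of the 6 receptor-regulated and common Smads, Smad4 was higher in both hepatic cells and, of the comparisons with MEF, Smad1 was called in pHep alone. The Smad3 probe set used read 10.59, 10.42, 10.39 and 10.44 in MEF, 11.63 and 11.55 in iHepSC and 11.41 in pHep. Smad4 read 11.81, 11.58, 11.70 and 11.64 in MEF, 12.29 and 12.46 in iHepSC and 12.32 in pHep. All hepatic arrays lay above all MEF arrays for both. That probe set of Smad3 was 1.13 higher in iHepSC (SE 0.10, 2.19-fold, adjusted p = 0.000382) and 0.95 higher in pHep (SE 0.13, 1.93-fold, adjusted p = 0.00306). The 2 dimmer Smad3 probe sets went the other way, at -0.52 each in iHepSC and -0.95 and -0.39 in pHep, and with the mean of all probe sets both calls were lost, so no direction is given for Smad3 as a gene. Smad4 was 0.70 higher in iHepSC (SE 0.11, 1.62-fold, adjusted p = 0.00441) and 0.64 higher in pHep (SE 0.14, adjusted p = 0.019).

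Smad1, a carrier of the BMP signal, read 10.21, 10.48, 10.59 and 10.66 in MEF, 10.05 and 9.98 in iHepSC and 11.64 in pHep. On the probe set used the iHepSC arrays were lowest and pHep highest. The other Smad1 probe sets gave 0.09 and 0.36 in iHepSC against MEF, and 1.50 and 2.31 in pHep against MEF. Smad1 was 1.15 higher in pHep than in MEF (SE 0.19, 2.22-fold, adjusted p = 0.00615) and 1.62 lower in iHepSC than in pHep (SE 0.21, 3.08-fold, adjusted p = 0.00328), and its difference between iHepSC and MEF, -0.47, was not called (adjusted p = 0.0551). Smad5 was 0.85 higher in pHep than in MEF (SE 0.22, adjusted p = 0.03). Smad2 read 10.09, 9.97, 9.98 and 9.97 in MEF, 10.29 and 10.28 in iHepSC and 9.75 in pHep, and was called only between iHepSC and pHep (0.54, SE 0.13, adjusted p = 0.0352), in 1 of the 6 fits that left out an array (adjusted p up to 0.129), and was lost with the mean of all probe sets and with the variance trend. Smad9, on a dim probe set, read 5.32, 5.76, 5.69 and 5.81 in MEF, 5.01 and 5.08 in iHepSC and 5.05 in pHep, with a difference of -0.60 in iHepSC (SE 0.16, adjusted p = 0.0329) that was called in 1 of those 6 fits (adjusted p up to 0.177) and was lost with a second quantile normalization and with arrays centred on Gapdh.

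The inhibitory Smads, which are made in answer to the signal and damp it, were not called in iHepSC against MEF. On the probe sets used they were lower in pHep than in both other cells. Smad6, which damps BMP signals, read 9.89, 9.50, 9.50 and 9.50 in MEF, 9.52 and 9.52 in iHepSC and 7.79 in pHep. The pHep array alone stood apart. Smad6 fell by 1.81 on the log2 scale in pHep against MEF (SE 0.19, 3.51-fold, adjusted p = 0.000977) and was 1.73 higher in iHepSC than in pHep (SE 0.20, 3.33-fold, adjusted p = 0.00229), and the difference of iHepSC from MEF had an interval of -0.43 to 0.27. Smad7, which damps TGF-beta signals as well, read 10.16, 10.76, 10.72 and 10.36 in MEF, 9.95 and 9.86 in iHepSC and 8.49 in pHep, a fall of 2.01 in pHep (SE 0.25, 4.02-fold, adjusted p = 0.00228). It was 1.41 higher in iHepSC than in pHep (SE 0.28), called in 4 of the 6 fits that left out an array. Without MEF replicate 1, Smad7 was called lower in iHepSC than in MEF too (-0.71, limma adjusted p = 0.00332). The Smad7 probe set used can cross-hybridise by its design class. The second one read 9.47 in pHep against a MEF mean of 10.05, and was 0.69 higher in iHepSC than in pHep. On it neither call with pHep was made, so that the low Smad7 of pHep rests on 1 probe set.

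The target genes parted. The Id genes, which are read out by BMP signals and block the action of bHLH transcription factors, went up for Id1 and Id2 and down for Id3, and Tgfbi, a matrix protein named for its induction by TGF-beta, went down. Promoters of Id2, Id3 and Smad6 are shown because these genes answer to Smads and took 3 different courses, and because Smad proteins are known to bind the letters GGCGCC and CAGAC. Each is the 250 bases before the gene's start in RefSeq, build GRCm38.p6, written 5′ to 3′ on the gene's strand in lower case, with GGCGCC and with CAGAC or its reverse complement GTCTG in capitals. They lie at chr12:25096093-25096342 (minus strand) for Id2, chr4:136143572-136143821 (plus strand) for Id3 and chr9:64022060-64022309 (minus strand) for Smad6.
Id2: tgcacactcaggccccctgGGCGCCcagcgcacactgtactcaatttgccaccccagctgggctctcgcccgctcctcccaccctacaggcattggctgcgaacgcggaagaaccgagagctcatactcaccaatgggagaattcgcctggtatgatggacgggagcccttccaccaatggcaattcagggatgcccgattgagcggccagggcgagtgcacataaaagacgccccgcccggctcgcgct
Id3: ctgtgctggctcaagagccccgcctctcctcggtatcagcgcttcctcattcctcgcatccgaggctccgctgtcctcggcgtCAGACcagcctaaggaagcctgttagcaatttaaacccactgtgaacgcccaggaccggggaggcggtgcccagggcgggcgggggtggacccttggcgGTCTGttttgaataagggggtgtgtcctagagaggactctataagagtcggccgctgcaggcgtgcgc
Smad6: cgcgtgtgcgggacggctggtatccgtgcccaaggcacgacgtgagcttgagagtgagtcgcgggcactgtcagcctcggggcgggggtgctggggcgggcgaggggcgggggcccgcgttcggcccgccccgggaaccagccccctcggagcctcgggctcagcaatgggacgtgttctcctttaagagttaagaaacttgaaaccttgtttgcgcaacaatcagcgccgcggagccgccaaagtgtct
Id2 held 1 GGCGCC, at 231 to 226 bases before the start. Id3 held CAGAC at 167 to 163 bases and GTCTG at 68 to 64 bases before it, and Smad6 held none of these letters in the window. Promoter windows were at hand for 34 of the 47 genes, 42 windows in all. GGCGCC, which reads the same on both strands, lay in 11 of the 42 windows (26.2%, of 10 genes), beside 9.59% of all 32851 windows and 12.3% of those of protein-coding genes. CAGAC or GTCTG lay in 21 of 42 (50.0%), beside 42.2% and 40.8%. The motifs searched do not overlap each other in their letters. These are matches of letters and not measured sites.

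Id1 read 11.997 on each of the first 3 MEF arrays and 12.03 on the fourth, 13.72 and 13.31 in iHepSC and 12.41 in pHep. Id2 read 11.10, 12.13, 11.98 and 12.13 in MEF, 13.37 and 13.24 in iHepSC and 14.00 in pHep. For both, iHepSC and pHep lay above every MEF array, with iHepSC highest for Id1 and pHep highest for Id2. Id1 was 1.51 higher in iHepSC than in MEF (SE 0.13, 2.84-fold, adjusted p = 0.000351) and 1.11 higher than in pHep (SE 0.18, 2.15-fold, adjusted p = 0.00987), and its difference of 0.40 between pHep and MEF was not called (adjusted p = 0.123). Id2 was 1.47 higher in iHepSC (SE 0.31, 2.77-fold, adjusted p = 0.0146) and 2.16 higher in pHep (SE 0.40, 4.48-fold, adjusted p = 0.0103), and its other probe sets gave 2.31 and 1.61 in iHepSC.

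Id3 read 13.05, 12.73, 12.72 and 12.75 in MEF, 11.69 and 10.91 in iHepSC and 11.52 in pHep. Every hepatic array lay below every MEF array, and pHep lay between the iHepSC passages. Id3 fell by 1.51 on the log2 scale in iHepSC (SE 0.23, 2.85-fold, adjusted p = 0.00383) and by 1.29 in pHep (SE 0.30, 2.44-fold, adjusted p = 0.0221). Tgfbi read 11.17, 10.35, 9.89 and 10.27 in MEF, 7.40 and 7.20 in iHepSC and 6.37 in pHep, a fall of 3.12 in iHepSC (SE 0.34, 8.69-fold, adjusted p = 0.000973) and of 4.05 in pHep (SE 0.44, 16.5-fold, adjusted p = 0.00129). Tgfbi is a known fibroblast product, and all 8 fibroblast markers fell in iHepSC and 7 of 8 in pHep beside it. How the fall of Tgfbi relates to these markers was not tested.

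**Figure D4:**
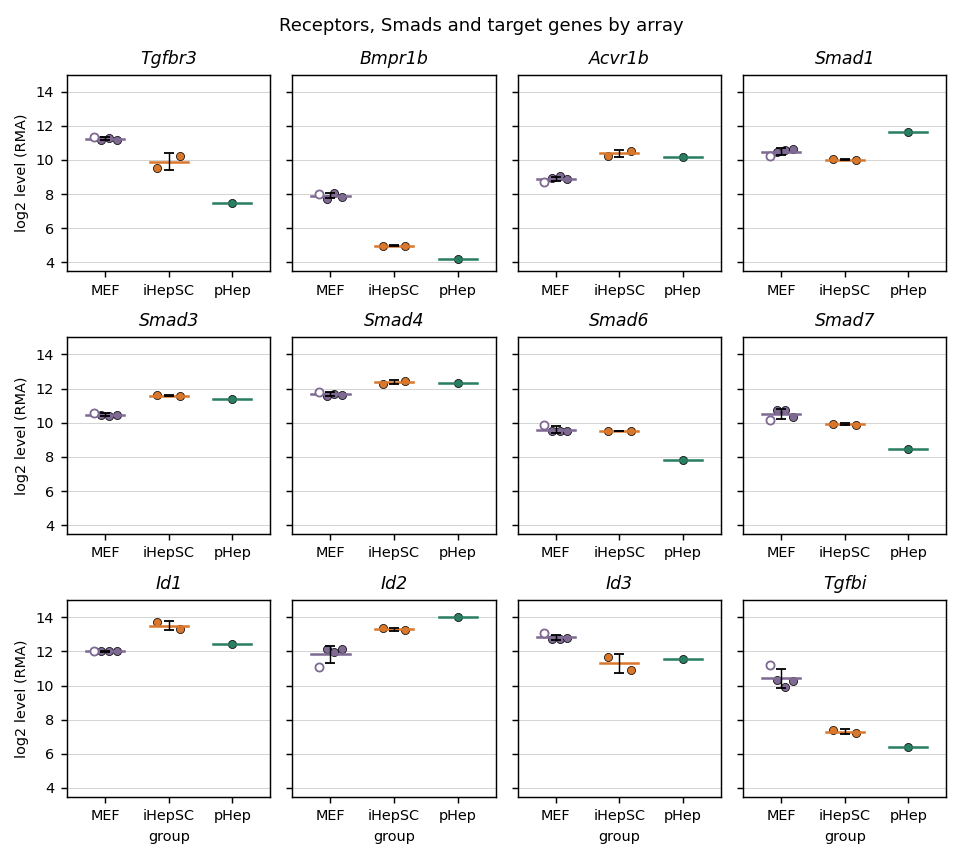
Log2 level of 12 receptor, Smad and target genes on each array, by group (points; open circle, MEF replicate 1), with the group mean as a line and the SD as a bar for the 4 MEF and 2 iHepSC arrays. Id1 and Id2 lie above MEF in iHepSC and Id3 and Tgfbi below. On the probe sets used Smad6 and Smad7 are lowest in pHep, at 7.79 and 8.49.

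In a wider list of 72 further genes of the pathway with a value, 9 were higher and 22 lower in iHepSC than in MEF, beside 18.2% and 13.4% of all genes. In pHep 8 were higher and 19 lower than in MEF, beside 14.8% and 15.5%, and 3 were higher and 16 lower in iHepSC than in pHep, beside 9.26% and 7.89%. The largest falls in iHepSC were in Fstl1, a follistatin-like protein (-9.22), Thbs1, an activator of latent TGF-beta (-8.76), Bgn, a matrix proteoglycan that binds TGF-beta (-8.28), and Tagln, a smooth muscle gene driven by TGF-beta (-7.81), all of which are also genes of matrix-rich or contractile cells. Thbs1 read 14.29, 13.82, 13.83 and 13.92 in MEF, 5.15 and 5.26 in iHepSC and 8.15 in pHep. The largest rises were in Itgb6, the integrin subunit that frees latent TGF-beta on epithelia (3.24), Junb, an AP-1 subunit induced by TGF-beta (2.34), Tmprss6 (2.12) and Nedd4l, a ubiquitin ligase of Smads (1.88). Itgb6 read 4.51, 4.64, 4.56 and 4.84 in MEF, 8.22 and 7.55 in iHepSC and 4.96 in pHep, so that it was high in iHepSC alone (adjusted p = 9.14e-05 against MEF and 0.00114 against pHep). The other activating integrin subunit, Itgb8, went down in iHepSC, from 6.26 to 7.69 in MEF to 4.20 and 4.46 (-2.37, adjusted p = 0.00703), and read 8.21 in pHep.

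Hamp, which encodes hepcidin, read 5.69, 6.21, 6.10 and 5.78 in MEF, 5.83 and 6.17 in iHepSC and 11.15 in pHep, a rise of 5.20 in pHep (adjusted p = 4.04e-05) with a difference of 0.05 in iHepSC. Hjv, the BMP co-receptor that Hamp needs, is named here after its values were seen, and read 8.75 in pHep and 5.56 to 6.07 on the other arrays. Tmprss6, the protease that cleaves it, read 6.84 to 7.57 in MEF, 9.15 and 9.35 in iHepSC and 11.25 in pHep, and was higher in both hepatic cells (adjusted p = 0.000678 and 0.000159). Atoh8, a transcription factor induced by BMP signals, was not called in pHep (0.30, adjusted p = 0.556). Ccn2, a target of TGF-beta, read between 13.96 and 14.46 on all 7 arrays and was not called.

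**Figure D5:**
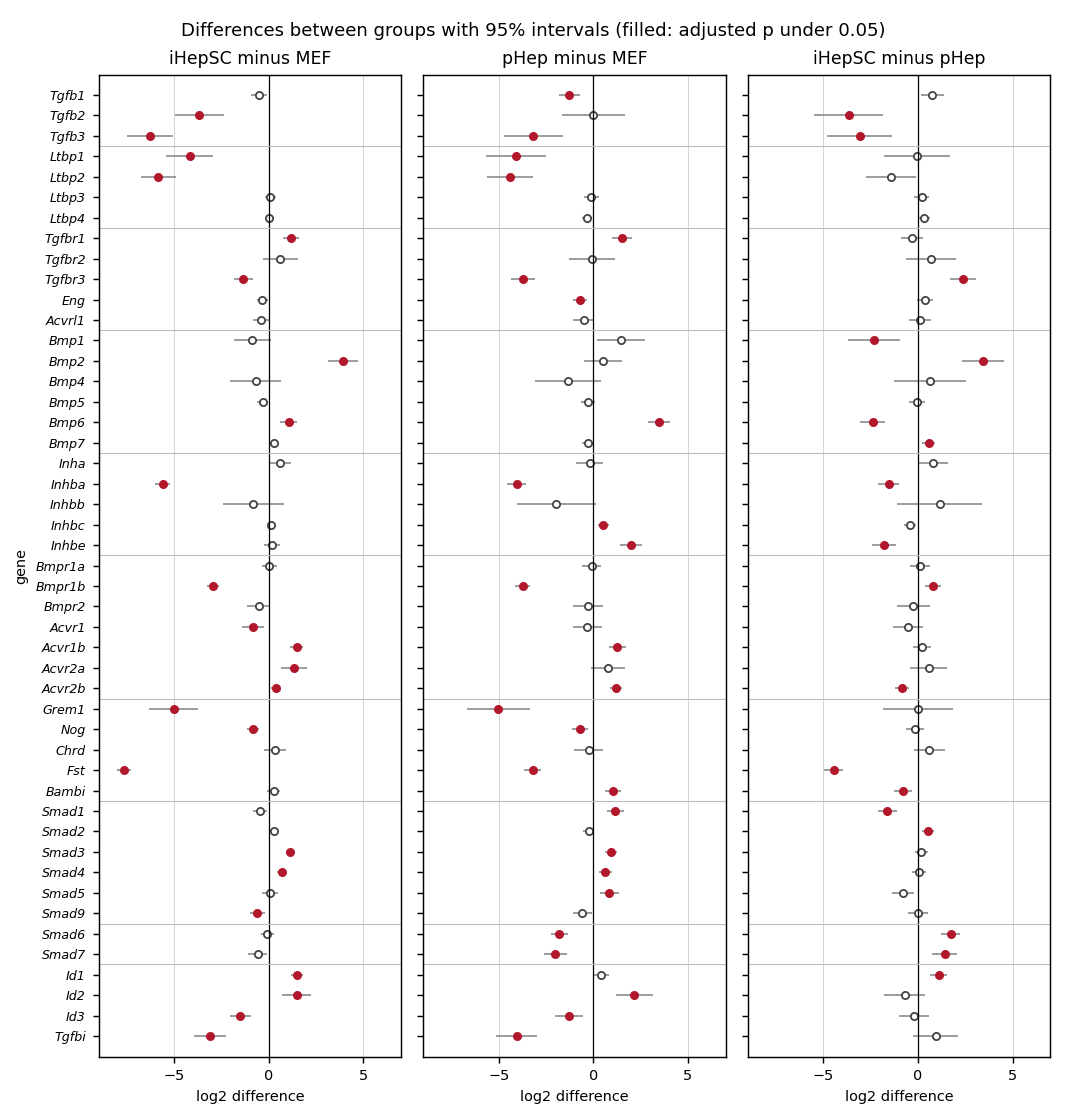
Log2 difference of each of the 47 genes (rows, by role) in the 3 comparisons, with 95% intervals from the model as lines and filled points where the adjusted p was under 0.05. Filled points number 24, 27 and 18, and Fst, Tgfb3, Ltbp2, Inhba and Grem1 lie farthest to the left in iHepSC minus MEF.

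The passages of iHepSC were each measured once, so that their differences have no test. Of the 47 genes 3 differed by more than 0.5 between passage 20 and passage 3, and 4.4% of all genes did. Ltbp1 was 1.23 lower, Id3 0.78 lower and Tgfbr3 0.70 higher at passage 20. The median size of the difference over the 47 genes was 0.129, and Bmp2, Fst, Inhba, Tgfb2 and Tgfb3 kept their distance from MEF at both passages.

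The calls of Acvr1, Acvr2b and Smad9 in iHepSC against MEF, Smad5 in pHep against MEF, and Tgfb3, Bmp1, Bmp7, Bambi and Smad2 in iHepSC against pHep held in 1 of the 6 fits, that without MEF replicate 1. Calls in iHepSC against MEF were made in every fit that left out 1 MEF or iHepSC array for 17 of the 24 genes, in pHep against MEF for 22 of 27, and in iHepSC against pHep for 9 of 18. Without MEF replicate 1, 17 genes were called higher and 15 lower in iHepSC than in pHep. Without the passage 3 array these were 4 and 5, and without the passage 20 array 4 and 6. Without MEF replicate 4, 5 were called higher. Without either of the iHepSC arrays, 6 genes were called higher in iHepSC than in MEF.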

How the data were processed

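Expression of MEF, iHepSC and pHep was measured on 7 arrays, and the authors deposited log2 values of 45101 probe sets from RMA (Robust Multiarray Analysis, which corrects background, applies quantile normalization and summarises each probe set), whose version is not given in the sources used here. Gene symbols came from the platform annotation, leaving out 64 controls, 932 with several symbols and 9160 with none. The probe set with the highest mean stood for each of the 18193 genes. Differences were fitted in limma 3.58.1 under R 4.3.3 (functions lmFit and eBayes, a mean per group, 4 residual degrees of freedom), with Benjamini-Hochberg adjustment over all genes and a threshold of 0.05. Tested on simulated data of iHepSC against MEF (18193 genes), the model recovered 56.7%, 86.6% and 100% of changes of 1, 2 and 4 on the log2 scale. That simulation changed 200 genes and held no outlying array, whereas 31.6% of genes were called in the data and MEF replicate 1 stood apart. These shares may thus not hold for the arrays here. The pathway genes, the wider list, the markers and the alternatives were chosen with earlier results of these data known. Values per array are given for the up to 3 genes of each role with the largest called difference in iHepSC against MEF, the up to 2 in each other comparison, and Tgfb1 to Tgfb3, Id1 to Id3, Smad6 and Smad7 always. Of the wider list, the 4 largest each way are named, with Hamp and Ccn2, and Itgb8, Hjv and Atoh8 are named besides. Gdf15 and some genes of the wider list are not analysed here. Alternatives covered probe sets, a filter on low values, scaling, the variance prior, arrays left out, a replicate block, the t-test of the methods and a fold floor. As arrays hold no counts, precision is set by how many there are and by how far they spread. Python 3.11.15, pandas 2.3.3 and matplotlib 3.10.9 made the tables and figures. Promoter windows are from RefSeq (GRCm38.p6).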

Additional observations from a re-analysis of the deposited data

Results flagged for a closer look

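Among the 4 MEF arrays, 1 array stood far from the other 3 for 22 of 57 genes tested (Dixon's test at the 95% level, which flags about 1 in 20 groups by chance), and on 21 of these the array was MEF replicate 1. Of the 47 pathway genes 19 were concerned. MEF replicate 1 lay above the other MEF arrays for the ligands and subunits Tgfb2 (11.48), Tgfb3 (12.77), Bmp4 (12.17), Inha (6.56), Inhba (13.54) and Inhbb (11.37), and for the protease Bmp1 (10.57). It was also high for the binding proteins and antagonist Ltbp1 (11.81), Ltbp2 (12.68) and Grem1 (11.62), and for the receptors Tgfbr2 (12.62), Bmpr1a (11.19), Acvr1 (11.34) and Acvr2a (9.34). Further inside the cell, it was high for Smad2 (10.09), Smad6 (9.89) and Id3 (13.05), and low for Id2 (11.10). In the wider list it was high for Fstl1 (13.91), Bgn (14.5) and Ccn2 (14.46). Id1 differed on MEF replicate 4, at 12.03, by 0.03 from the other MEF arrays, which gave 1 and the same value, as MEF replicates 2 to 4 did for Smad6.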

How the results depend on the processing

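The counts changed with the arrays used. With MEF replicates 2 to 4 averaged as 1 sample, the pathway genes called higher and lower were 6 and 10 in iHepSC against MEF, 7 and 9 in pHep against MEF and 3 and 4 in iHepSC against pHep. With MEF replicate 1 as the only MEF array, chosen after seeing the data, 6 were higher in iHepSC against MEF and 5 in iHepSC against pHep. By the methods' t-test with Benjamini-Hochberg adjustment, pHep against MEF gave 6 and 8 and iHepSC against pHep 1 and 0, the lone pHep array being set against the spread of the other group; without adjustment 9 of the 18 genes called in iHepSC against pHep passed. With the mean of all probe sets 4 were higher in iHepSC than in pHep, and with a floor of 2-fold 5. Leaving out 1 array at a time gave 6 to 15 higher and 11 to 23 lower in iHepSC against MEF, 10 to 16 and 13 to 21 in pHep against MEF, and 4 to 17 and 5 to 15 in iHepSC against pHep, the highest counts being without MEF replicate 1.

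Replicate numbers mark the passage in iHepSC and only name arrays in MEF, so they give no ground to pair the arrays. Same-numbered deviations from the group means correlated at -0.222 and -0.207. As the iHepSC deviations mirror each other and MEF replicate 1 stands apart, these correlations cannot settle a pairing. With the number as a replicate block, 2 and 8 genes were called in iHepSC against MEF, 1 and 5 in pHep against MEF and 0 and 1 in iHepSC against pHep. Over all genes the block gave 845 higher and 682 lower, 465 and 315, and 189 and 259, against 3310 and 2446, 2696 and 2814, and 1685 and 1435. Without MEF replicate 1 these were 5638 and 4514, 4917 and 5743, and 4628 and 3144.

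Centring each array on Gapdh moved the median of all genes to 0.41, -0.18 and 0.60 in the 3 comparisons, from 0.01, -0.13 and 0.15, and gave 5286 higher and 1279 lower genes in iHepSC against MEF. Signs turned for few genes. In iHepSC against MEF, Tgfbr1 was -0.49 with the mean of all probe sets, Smad7 was 0.11 without the _x_at and _s_at probe sets, and Smad6 was 0.32 centred on Gapdh and between -0.11 and 0.0192 with 1 array left out (the latter without MEF replicate 1). In pHep against MEF, the mean of all probe sets gave 0.55 for Tgfb2, -0.34 for Tgfbr1 and -0.13 for Smad3, and with 1 array left out Tgfb2 lay between -0.165 and 0.42 (the latter without MEF replicate 1). In iHepSC against pHep, Id3 was 0.23 centred on Gapdh, between -0.61 (without the passage 3 array) and 0.17 (without the passage 20 array) with 1 array left out, and 0.0514 with the replicate block. The probe sets differ by construction. For the others the cause was not tested.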
